A study of Mus musculus with 4 samples.

Results

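The dual-specificity MAPK phosphatase genes examined here are 10 genes, Dusp1, Dusp2, Dusp4, Dusp5, Dusp6, Dusp7, Dusp8, Dusp10, Dusp14 and Dusp16, chosen by name, and all 10 were found among the 48432 gene identifiers of the deposited table. Their RNA was measured by total RNA sequencing in 4 libraries of D2.OR cells, a mouse mammary line described as pre-malignant hyperplastic alveolar cells. Parental cells (2 libraries) were compared with BORG-expressing cells (2 libraries), BORG being a long non-coding RNA. Both groups were grown as 3D organoids with Cultrex basement membrane extract for 7 days. In the deposited table the conditions are called BORG and Empty, and Empty was read as parental. The labels do not state whether the Empty cells carried a vector or whether the BORG-expressing cells were a pool or 1 clone. An effect of a vector or a clone and that of BORG cannot be told apart.

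MAP kinases are switched on when an upstream kinase phosphorylates a threonine and a nearby tyrosine in their activation loop. Dual-specificity MAPK phosphatases remove both phosphates and so switch the kinase off. The family is divided by where the protein sits and which kinase it prefers: inducible nuclear enzymes (Dusp1, Dusp2, Dusp4, Dusp5), cytoplasmic enzymes selective for ERK (Dusp6, Dusp7), and enzymes that prefer JNK and p38 (Dusp8, Dusp10, Dusp16). Several of these genes are themselves transcribed in response to MAPK signalling, which makes them feedback inhibitors. Dusp14 is a small, atypical enzyme that lacks the N-terminal MAPK-binding domain of the others.

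The libraries held 24.2 M and 30.3 M (parental) and 7.90 M and 27.1 M (BORG-expressing) fragments assigned to genes, so BORG-expressing replicate 1 was the shallowest. The BORG gene (Gm45924) matched 0 identifiers of the table, and its level was not analysed here. Of the epithelial markers, Krt8, Krt18 and Krt14 were abundant (each above 100 FPKM, fragments scaled to transcript length in kilobases and to M sequenced fragments, in every library), Epcam and Cdh1 were at 0.749 to 2.58 FPKM, and Krt5 was listed at 0 in both parental libraries. In edgeR's test, described below, 5 of the 7 tested epithelial markers were called higher in BORG-expressing cells and 1 lower. Of all tested genes 19.9% were called higher and 21.3% lower. Krt14 rose from 306 and 307 to 779 and 786 CPM (fragments per M assigned fragments), Cdh1 rose from 5.25 and 4.89 to 12.9 and 9.44 CPM, and Krt18 fell from 1486 and 1458 to 928 and 896 CPM. Krt14 was called in 11 of 11 alternative fits; Cdh1 and Krt18 did not pass in the limma fits to FPKM (adjusted p up to 0.0993 and 0.237), and the small Krt8 difference (log2 0.28, edgeR adjusted p = 0.0489) was called in 2 of 11 and lost its call whichever library was left out. The calls of Krt19 and Cldn4, each at 30 fragments or fewer per library, were lost without BORG-expressing replicate 1 (adjusted p = 0.0587 and 0.170) and without parental replicate 2 (0.0654 and 0.154), and that of Krt19 also without parental replicate 1 (0.112). The 6 leukocyte markers summed to 4.80 and 5.60 FPKM in parental and 10.8 and 8.03 FPKM in BORG-expressing libraries. Cd68 alone made up most of that sum (4.57 and 5.33 against 10.7 and 7.96 FPKM), and its call higher (edgeR adjusted p = 0.0191) was lost without parental replicate 1 (adjusted p = 0.129), parental replicate 2 (0.0593) or BORG-expressing replicate 2 (0.0517). The pan-leukocyte marker Ptprc fell, with 31 and 40 fragments in parental and 1 and 6 in BORG-expressing libraries (edgeR adjusted p = 0.0119). The 5 endothelial markers summed to 1.73 and 1.91 against 0.697 and 0.611 FPKM. Kdr, Cdh5 and Vwf were called lower, calls that held in 8 of 10, 2 of 8 and 7 of 8 alternative fits. Pecam1 went the other way without passing (1 and 8 against 4 and 24 fragments, log2 2.15, edgeR adjusted p = 0.0923). The 6 fibroblast markers summed to 108 and 113 against 98.1 and 80.2 FPKM. Of the 3 tested, Pdgfra and Pdgfrb fell (edgeR adjusted p = 0.0232 and 0.00564). Those calls held in 7 of 11 and 8 of 10 alternative fits. Col1a1 went the other way without passing (143 and 115 against 121 and 181 CPM, log2 0.23, edgeR adjusted p = 0.411). The part of these marker shifts in the results below was not tested. In bulk RNA, fewer cells of a type and less RNA per cell cannot be told apart.

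In BORG-expressing cells 3 of the 10 phosphatase genes fell and 0 rose. The ERK-selective phosphatase gene Dusp6 fell 3.50-fold, and the nuclear ERK phosphatase gene Dusp5 and the JNK and p38 phosphatase gene Dusp8 fell 2.01-fold and 1.99-fold. The other 7 genes did not pass the test, Dusp1 among them. These calls come from edgeR's quasi-likelihood test on all 15116 genes tested, with a Benjamini-Hochberg adjusted p under 0.05. Across all tested genes 41.1% were called, 21.3% lower and 19.9% higher, so a share of 3 in 10 is near the background and is no result about the family as a whole. Without BORG-expressing replicate 1, the shallowest library, replicate 2 stood alone in its group. In that fit the log2 fold changes were -1.86 (Dusp6), -0.91 (Dusp5) and -1.12 (Dusp8). Those of Dusp2, Dusp1 and Dusp14, which had not passed, were -2.11, 0.42 and 0.56. With all libraries kept, the median log2 fold change of the 10 genes was -0.16, against 0.022 over all tested genes. All 10 passed the filter on low counts.

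**Figure D1:**
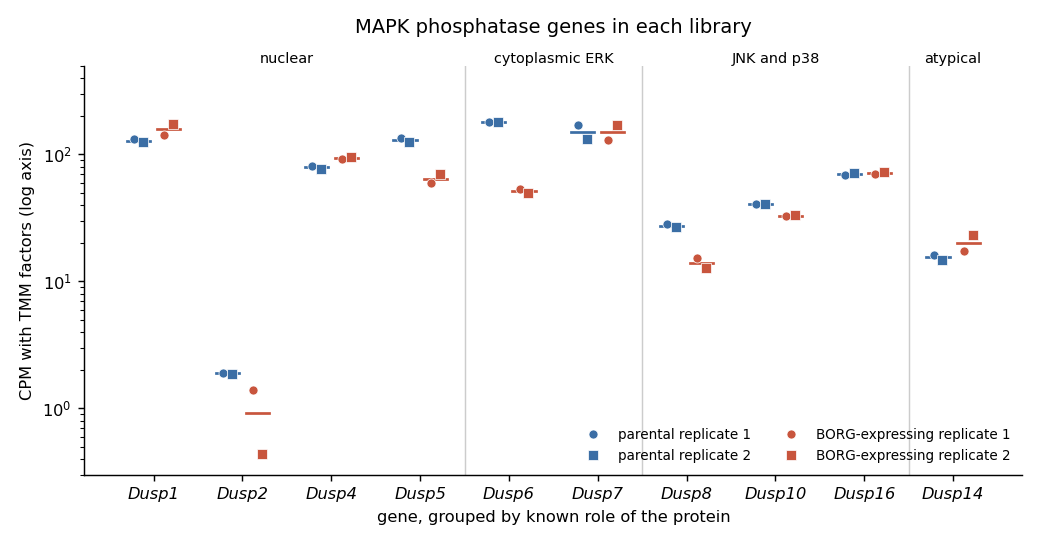
CPM (fragments per M assigned fragments, with TMM factors, log axis) of each phosphatase gene in the 4 libraries, with circles for replicate 1, squares for replicate 2 and a line at each group's mean. Dusp6 stands at 178 and 181 CPM in parental libraries and at 53.0 and 49.7 CPM in BORG-expressing libraries, while Dusp7 and Dusp16 overlap between the groups.

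The promoters of these genes differ in the motifs they hold. The 300 bases from 250 before to 50 after the RefSeq start (GRCm38.p6, gene strand, 5′ to 3′) are given for the 3 genes that fell and, for comparison, for Dusp1, which did not pass the test. They lie at chr10:99262981-99263280 (plus strand), chr19:53528895-53529194 (plus strand), chr7:142095235-142095534 (minus strand) and chr17:26508423-26508722 (minus strand). Capitals mark 3 motifs on either strand: the core TGACG of the cyclic AMP response element, the CArG box bound by serum response factor, and the ETS factor core CGGAA.
Dusp6: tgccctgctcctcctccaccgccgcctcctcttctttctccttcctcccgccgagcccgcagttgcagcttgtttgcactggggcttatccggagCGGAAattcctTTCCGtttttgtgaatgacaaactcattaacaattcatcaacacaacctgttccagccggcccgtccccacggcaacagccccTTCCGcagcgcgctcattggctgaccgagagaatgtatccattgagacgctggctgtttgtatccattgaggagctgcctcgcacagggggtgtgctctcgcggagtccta
Dusp5: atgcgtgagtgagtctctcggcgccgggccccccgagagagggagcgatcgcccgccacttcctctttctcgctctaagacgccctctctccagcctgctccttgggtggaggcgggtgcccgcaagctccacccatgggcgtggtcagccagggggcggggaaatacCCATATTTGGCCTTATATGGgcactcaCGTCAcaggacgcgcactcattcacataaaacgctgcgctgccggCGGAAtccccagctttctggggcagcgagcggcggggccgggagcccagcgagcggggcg
Dusp8: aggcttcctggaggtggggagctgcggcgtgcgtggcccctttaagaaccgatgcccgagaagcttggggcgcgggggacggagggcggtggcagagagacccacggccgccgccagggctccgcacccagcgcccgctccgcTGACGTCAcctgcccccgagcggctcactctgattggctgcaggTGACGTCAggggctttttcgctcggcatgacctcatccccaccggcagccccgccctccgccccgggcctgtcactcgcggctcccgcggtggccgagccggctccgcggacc
Dusp1: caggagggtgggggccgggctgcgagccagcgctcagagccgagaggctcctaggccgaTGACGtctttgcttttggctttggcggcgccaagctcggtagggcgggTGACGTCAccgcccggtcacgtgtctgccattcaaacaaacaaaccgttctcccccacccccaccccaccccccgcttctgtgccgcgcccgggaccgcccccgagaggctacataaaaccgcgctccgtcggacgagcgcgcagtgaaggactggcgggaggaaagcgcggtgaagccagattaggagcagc

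The Dusp6 promoter held 3 ETS cores, starting 155, 144 and 61 bases upstream of the gene's start, and no other motif of those searched. Of 32851 RefSeq promoters of that length, 29.9% held at least 1 ETS core and 10.3% at least 2. The Dusp5 promoter held 2 adjacent CArG boxes, 82 and 72 bases upstream, with 1 TGACG core and 1 ETS core; 1.63% of all promoters held a CArG box and 0.0183% held 2 or more. In the Dusp8 promoter the full palindromic cyclic AMP response element TGACGTCA occurred at 2 places, 107 and 63 bases upstream, as it did 2 or more times in 0.0396% of promoters. Dusp1 had 1 full element 143 bases upstream, found at least once in 1.79% of promoters, and a separate TGACG core 191 bases upstream. A full element contains 2 overlapping TGACG cores, and 20.8% of promoters held a core. No motif of those searched was shared by all 3 genes that fell: Dusp6 and Dusp5 shared the ETS core, and Dusp5 and Dusp8 the TGACG core. Among the 9 member promoters in the RefSeq table, 3 held an ETS core (Dusp5, Dusp6 and Dusp14) and 5 a TGACG core (Dusp1, Dusp2, Dusp5, Dusp8 and Dusp16). None of these 9 promoters held the AP-1 motif TGANTCA, and Dusp1 and Dusp2 each held the E-box CACGTG, found in 7.15% of promoters. Motifs were chosen after the values were seen, and a match is a description of letters, not of binding.

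Among the nuclear enzymes, Dusp5, which dephosphorylates ERK and holds it in the nucleus, was the gene that passed the test. It was at 135 and 125 CPM in parental libraries (3222 and 3779 fragments) and at 59.2 and 69.8 CPM in BORG-expressing libraries (469 and 1916 fragments). Both BORG-expressing libraries lay below both parental ones. The log2 fold change was -1.01 ± 0.13 (SE, 2 libraries per group, edgeR adjusted p = 0.00168), which 12.3% of tested genes lay below. Dusp5 lies on chromosome 19 at 53529109 to 53542431 (GRCm38, GENCODE M21), where it overlaps 1 antisense gene on the opposite strand that had 0 fragments in all 4 libraries.

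Dusp1, an early-response phosphatase that acts on p38, JNK and ERK, was at 132 and 125 CPM in parental libraries and at 141 and 173 CPM in BORG-expressing libraries. Its groups did not overlap, but the difference did not pass the test (log2 0.29 ± 0.13, edgeR adjusted p = 0.120). Without BORG-expressing replicate 1 it passed (log2 0.42, adjusted p = 0.0399). In GENCODE M21 Dusp1 spans chromosome 17 from 26505590 to 26562128 and overlaps Ergic1, an abundant gene on the opposite strand with 4339, 5198, 1353 and 4891 fragments in the 4 libraries. The RefSeq promoter printed above, at 26508423 to 26508722, lies inside this span, so GENCODE and RefSeq start Dusp1 at different places. Whether exons of Dusp1 and Ergic1 overlap was not examined. Whether reads of both genes were split by strand is not stated, so the Dusp1 count is uncertain to that extent.

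Dusp4, an inducible nuclear phosphatase of ERK and JNK, was at 81.5 and 77.4 CPM in parental and at 91.7 and 96.0 CPM in BORG-expressing libraries. The groups did not overlap, and the difference did not pass (log2 0.24 ± 0.10, edgeR adjusted p = 0.110). Dusp2, a nuclear phosphatase best known from activated immune cells, was the scarcest member. It had 45 and 57 fragments in parental libraries (1.89 and 1.88 CPM) and 11 and 12 in BORG-expressing libraries (1.39 and 0.437 CPM). Per M assigned fragments, the exact 95% Poisson intervals of the BORG-expressing counts were 0.695 to 2.49 and 0.229 to 0.773, which cover counting error only. Its log2 fold change of -1.24 ± 0.60 did not pass (edgeR adjusted p = 0.147) and rested on 1 library: without BORG-expressing replicate 1 it was -2.11 (adjusted p = 0.0252) and without BORG-expressing replicate 2 it was -0.44 (adjusted p = 0.587).

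Dusp6 and Dusp7 encode closely related cytoplasmic phosphatases that act on ERK, of which the first passed the test and the second did not. Dusp6 had 4245 and 5478 fragments in parental libraries (178 and 181 CPM) and 420 and 1363 in BORG-expressing libraries (53.0 and 49.7 CPM). The 2 libraries of each group lay close together and the groups were far apart. The log2 fold change was -1.81 ± 0.11 (SE, edgeR adjusted p = 1.4e-04), and 634 of the 15116 tested genes, 4.19%, had a lower one. Dusp6 lies on chromosome 10 at 99263231 to 99267489 and overlaps 0 other annotated genes.

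Dusp7 was at 170 and 132 CPM in parental libraries and at 130 and 171 CPM in BORG-expressing libraries. Each group thus had 1 high and 1 low library, and the groups overlapped. The difference was -0.0037 ± 0.18 on the log2 scale (edgeR adjusted p = 0.990). Within each library, the ratio of Dusp6 to Dusp7 fragments needs no scaling between libraries: it was 1.05 and 1.37 in parental and 0.407 and 0.291 in BORG-expressing libraries. These pairs of genes were chosen after their values were seen, and with 2 libraries a group no exact permutation test can pass a threshold of 0.05, so no p is given and the difference between both genes was not tested.

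Of the enzymes that prefer JNK and p38, Dusp8 was the least abundant and the one that fell. It was at 28.2 and 26.6 CPM in parental libraries (672 and 806 fragments) and at 15.2 and 12.7 CPM in BORG-expressing libraries (120 and 348 fragments). All BORG-expressing values lay below the parental ones. The log2 fold change was -0.99 ± 0.16 (edgeR adjusted p = 0.00374), but in limma on log2(FPKM + 1) it was -0.71 and did not pass (adjusted p = 0.108). On the FPKM scale Dusp8 was at 5.53 and 4.98 in parental and at 3.92 and 1.98 in BORG-expressing libraries. Those 2 BORG-expressing libraries lay further apart in FPKM than in CPM. Dusp8 lies on chromosome 7 at 142079490 to 142095843.

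Dusp10, which restrains JNK and p38 signalling, was at 41.1 and 40.5 CPM in parental and 32.6 and 33.0 CPM in BORG-expressing libraries. The groups did not overlap and the replicates were close, yet the difference of -0.31 ± 0.11 did not pass (edgeR adjusted p = 0.0637). Dusp16, a JNK-directed phosphatase, was at 68.4 and 71.5 CPM against 70.2 and 73.1 CPM. Its groups overlapped, with a log2 difference of 0.035 ± 0.10 (edgeR adjusted p = 0.814). The Dusp8 to Dusp16 fragment ratio was 0.413 and 0.372 in parental and 0.216 and 0.173 in BORG-expressing libraries.

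The atypical phosphatase gene Dusp14 was at 16.2 and 14.9 CPM in parental libraries and at 17.4 and 23.0 CPM in BORG-expressing libraries. Its groups did not overlap, but BORG-expressing replicate 1 lay near the parental values, and the log2 difference of 0.40 ± 0.18 did not pass (edgeR adjusted p = 0.127). Without BORG-expressing replicate 1 it passed (log2 0.56, adjusted p = 0.0389). In all, the CPM of the groups did not overlap for 8 of the 10 members, 5 lower and 3 higher. Over all tested genes 72.6% did not overlap, 36.0% lower and 36.6% higher, which the members' count is near. A change of at least 2-fold that also passed was seen for 2 members, Dusp6 and Dusp5, and for 10.0% of tested genes in that direction.

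**Figure D2:**
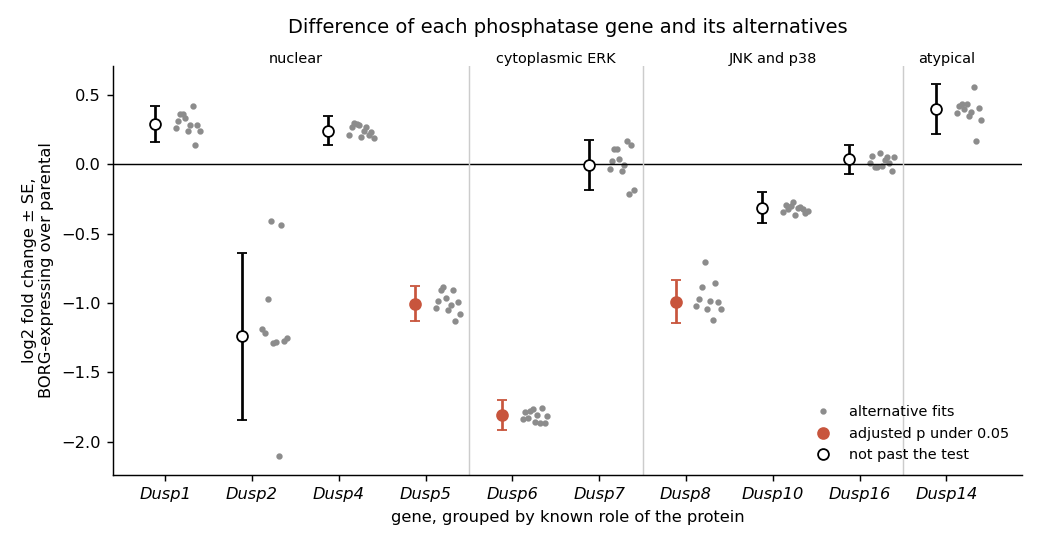
Log2 fold change of BORG-expressing over parental cells for each phosphatase gene, with its SE, filled where the edgeR adjusted p was under 0.05; grey points are the same value in the alternative fits. Dusp6 stays between -1.87 and -1.76 in the alternatives, while Dusp2 runs from -2.11 to -0.41 and Dusp7 and Dusp16 scatter around 0.

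Per length, the order of the members shifted between the groups. In parental cells Dusp1 (64.6 ± 4.33 FPKM, SD, n = 2) and Dusp6 (63.8 ± 2.77 FPKM) stood at the top and did not differ beyond their spread. Dusp5 (53.2 ± 4.24 FPKM) and Dusp7 (46.3 ± 9.17 FPKM) followed, their libraries overlapping, then Dusp4 (27.2 ± 1.32 FPKM), Dusp10 (13.7 ± 0.0895 FPKM) and Dusp16 (12.8 ± 1.38 FPKM), the last 2 overlapping. Dusp14 (9.85 ± 0.479 FPKM), Dusp8 (5.25 ± 0.387 FPKM) and Dusp2 (1.28 ± 0.0346 FPKM) were lowest, each apart from its neighbours. In BORG-expressing cells Dusp1 was first at 83.7 ± 14.7 FPKM and Dusp6 ranked 5 at 17.9 ± 2.48 FPKM. Between them lay Dusp7 (50.2 ± 11.6 FPKM), Dusp4 (34.1 ± 9.68 FPKM) and Dusp5 (28.7 ± 6.47 FPKM), of which Dusp4 and Dusp5 overlapped. Dusp14 (13.3 ± 0.381 FPKM) and Dusp16 (12.6 ± 1.42 FPKM) overlapped as well, while Dusp10 (11.0 ± 0.615 FPKM) lay below both in each library. Dusp8 (2.95 ± 1.37 FPKM) and Dusp2 (0.80 ± 0.80 FPKM) were again lowest.

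As a share of the summed FPKM of the 10 genes, Dusp6 made up 20.0% and 22.9% in parental and 6.83% and 7.27% in BORG-expressing libraries. Dusp1 made up 21.9% and 21.4% against 32.6% and 33.0%, and Dusp5 18.2% and 17.5% against 11.6% and 10.9%. The 2 cytoplasmic ERK enzymes together held 37.1% and 36.8% against 27.1% and 26.2%, and the 4 nuclear enzymes 49.6% and 48.5% against 58.9% and 56.2%. A share rises whenever another falls, so these values show unequal change and not which gene changed. The sum itself was 309 and 287 FPKM in parental and 288 and 222 FPKM in BORG-expressing libraries, which overlapped between the groups.

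**Figure D3:**
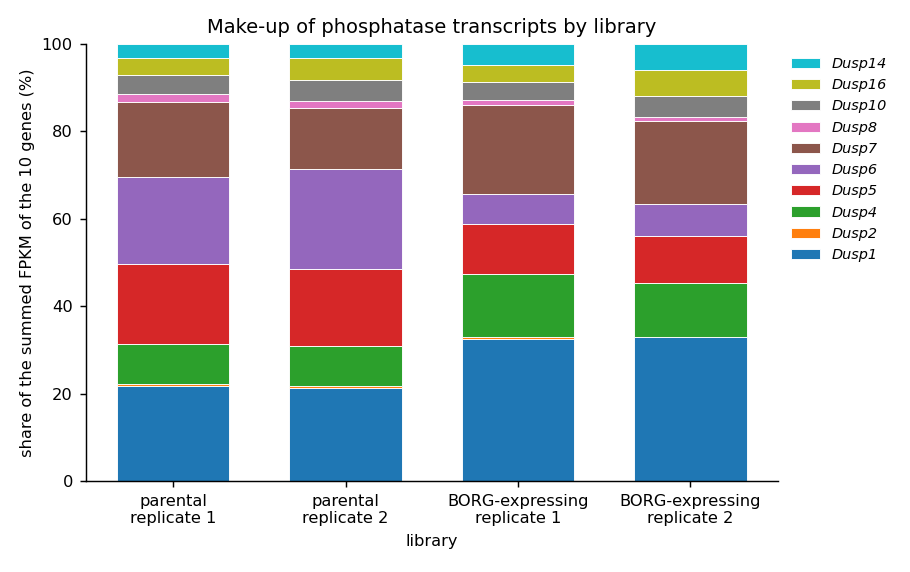
Share (%) of each phosphatase gene in the summed FPKM of the 10 genes, 1 bar per library. Dusp6 takes 20.0% and 22.9% of the parental bars and 6.83% and 7.27% of the BORG-expressing bars, with Dusp1 near 33% in both of the latter.

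The FPKM values did not follow the counts equally in every library. Dusp4 had nearly the same CPM in both BORG-expressing libraries (91.7 and 96.0) but FPKM of 41.0 and 27.3. Over 8274 genes with more than 100 fragments in every library, the log2 ratio of FPKM to CPM, relative to parental replicate 1, had an SD of 0.355 in BORG-expressing replicate 1, 0.207 in BORG-expressing replicate 2 and 0.172 in parental replicate 2. The main tests rest on the counts, and FPKM serves to compare levels between genes. Where FPKM orders, shares and sums are set side by side between groups, they carry this spread.

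The members also differ in a sequence feature of their messages. AU-rich elements in the 3′ untranslated region, built on the pentamer ATTTA, are known to shorten the life of early-response mRNAs. In 1 GENCODE M21 transcript per gene, the pentamer was counted 5 times in Dusp8, 4 times in Dusp1 and Dusp2, 3 times in Dusp10 and Dusp16, 2 times in Dusp4, 1 time in Dusp5 and Dusp6, and 0 times in Dusp7 and Dusp14. The median over 21020 genes was 1, and 61.7% of them held at least 1. These counts are not scaled to length, which ran from 576 bases (Dusp14) to 2411 bases (Dusp16). Per kilobase, Dusp2 (6.88) and Dusp1 (5.80) were densest, followed by Dusp10 (2.70) and Dusp8 (2.11, over 2370 bases). The longer nonamer TTATTTATT, present in 6.98% of genes, occurred in Dusp1 (2 times) and Dusp8 (1 time), whose first sites are shown in capitals to let them be compared.
Dusp1: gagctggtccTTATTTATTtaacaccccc
Dusp8: tttcgattttTTATTTATTtaagctagtg
Both sites hold the same nonamer followed by taa, in otherwise different surroundings. Of these genes 1 fell while the other did not pass the test. Dusp5 and Dusp6, which fell, had no more pentamers than the median gene.

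Other genes of the MAPK pathway, in lists drawn up for their function with earlier results of these data known, give the setting of these values. Of 18 other dual-specificity phosphatase and MAPK tyrosine phosphatase genes 10 were tested, of which 4 fell and 1 rose (50% called, against 41.1% of all tested genes, 21.3% lower and 19.9% higher; median log2 -0.36). Dusp3, a small phosphatase of ERK and JNK, was at 102 and 107 CPM in parental and 56.3 and 52.1 CPM in BORG-expressing libraries, and fell by 0.95 ± 0.11 on the log2 scale (edgeR adjusted p = 0.00116). Dusp9, a further cytoplasmic phosphatase gene of the ERK-selective group, fell from 6.39 and 6.80 to 2.27 and 2.30 CPM (log2 -1.53 ± 0.25, adjusted p = 0.00421). Dusp12 fell by 0.79 ± 0.17 (adjusted p = 0.0136), a call lost without parental replicate 1 (adjusted p = 0.0550). Dusp19, a regulator of the JNK pathway, rose by 1.19 ± 0.24 (adjusted p = 0.00908). Dusp9 lost its call in both limma fits to FPKM (adjusted p = 0.0613 and 0.0627). Ptpn7 also fell, on 10 and 12 fragments in parental and 0 and 1 in BORG-expressing libraries (log2 -3.64 ± 1.07, edgeR adjusted p = 0.0360). With DESeq2 or with the replicate block, the genes of this list called lower were Dusp3, Dusp9 and Dusp12, so Ptpn7 lost its call.

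Genes of the MAP kinase family, which includes the substrates of these phosphatases but is not limited to them, went both ways. Of 11 tested MAP kinase genes 4 rose and 3 fell (63.6% called, against 41.1% of all tested genes; median log2 -0.12). Mapk3, which encodes a classical ERK, rose by 1.04 ± 0.16 (edgeR adjusted p = 0.00334), from 24.6 and 19.4 to 42.3 and 47.6 CPM. Mapk6, an atypical MAP kinase gene, fell by 0.68 ± 0.12 (adjusted p = 0.00551), while the p38 family gene Mapk12 rose by 0.95 ± 0.20 (adjusted p = 0.0109) and Mapk7 rose by 0.62 ± 0.16 (adjusted p = 0.0212). In limma on log2(FPKM + 1) 2 of these genes were called higher and 0 lower, and Mapk6 and Mapk7 did not pass (adjusted p = 0.0598 and 0.0851). Without BORG-expressing replicate 2 or without parental replicate 2, 2 MAP kinase genes were called higher and 1 lower, and Mapk7 lost its call (adjusted p = 0.0641 and 0.107). Without parental replicate 1 the number called lower was also 1.

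Upstream, 6 of 26 RAS, RAF, MAP3K and MAP2K genes rose and 4 fell (median log2 0.072). The 38.5% called is near the 41.1% of all tested genes and is no result about the upstream kinases as a group. The activators of p38 split: Map2k6 rose by 2.30 ± 0.20 (edgeR adjusted p = 4.56e-04) and Map2k3 fell by 1.37 ± 0.14 (adjusted p = 8.28e-04). Map3k5, a stress-activated kinase gene of the JNK and p38 pathways, fell by 0.68 ± 0.096 (adjusted p = 0.00252), and Map3k4 rose by 0.76 ± 0.11 (adjusted p = 0.00274). Without parental replicate 2, 2 genes of this list were called lower. The ERK pathway genes Map2k1 (0.097 ± 0.11) and Map2k2 (-0.11 ± 0.18), named after their values were seen, did not pass.

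Downstream, 3 of 11 MAPK-activated kinase genes rose and 4 fell (63.6% called, against 41.1% of all tested genes; median log2 -0.10). Rps6ka2, a ribosomal S6 kinase gene activated by ERK, fell by 3.63 ± 0.16 (edgeR adjusted p = 7.17e-05), from 41.0 and 43.1 to 3.28 and 3.46 CPM, while its relative Rps6ka1 rose by 1.28 ± 0.16 (adjusted p = 0.00166). Mknk2 and Mknk1, kinases of the translation factor eIF4E, went opposite ways (2.22 ± 0.18, adjusted p = 3.65e-04, and -1.10 ± 0.19, adjusted p = 0.00493). Without BORG-expressing replicate 2, 2 genes of this list were called lower.

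Genes commonly read as ERK output were mostly lower. Of 13 such genes 10 fell and 1 rose (84.6% called, against 41.1% of all tested genes), with a median log2 fold change of -1.50 against 0.022 over all tested genes. Egr1, an immediate early transcription factor gene, fell from 78.7 and 78.5 to 9.34 and 12.1 CPM (log2 -2.84 ± 0.15, edgeR adjusted p = 1.1e-04). Fos fell by 2.27 ± 0.15 (adjusted p = 1.77e-04), Myc by 2.37 ± 0.16 (adjusted p = 2.06e-04) and the ephrin receptor gene Epha2 by 1.85 ± 0.13 (adjusted p = 2.56e-04). The member that rose was Ier3 (0.90 ± 0.10, adjusted p = 0.00129), and Etv4 (0.42 ± 0.17) and Epha4 (0.58 ± 0.46) did not pass. Without BORG-expressing replicate 1, 2 genes were called higher.

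**Figure D4:**
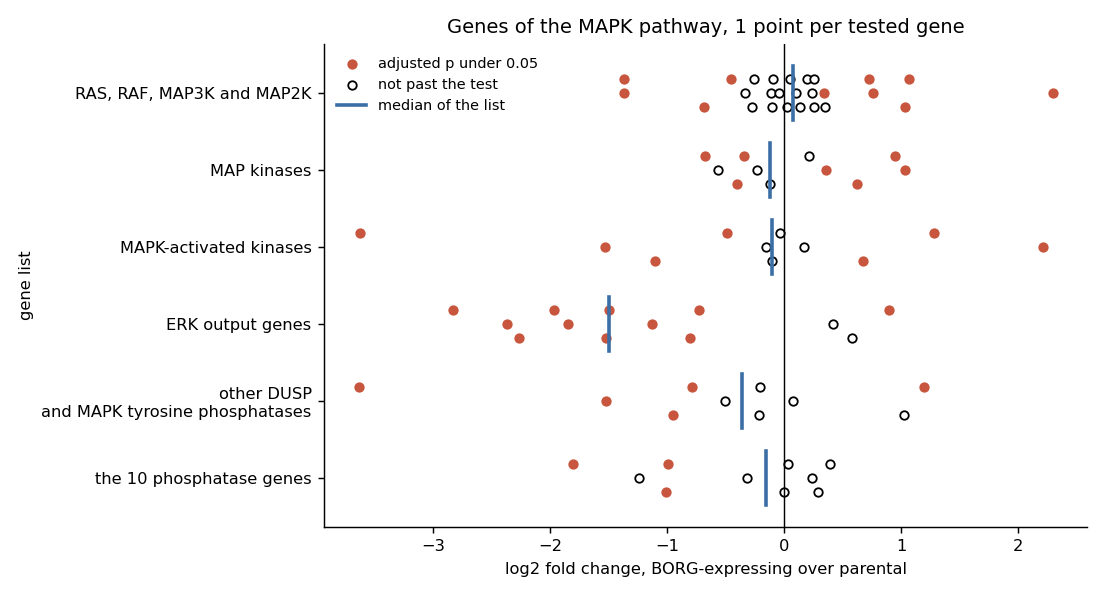
Log2 fold change (BORG-expressing over parental) of each tested gene in 5 pathway lists and of the 10 phosphatase genes, filled where the edgeR adjusted p was under 0.05, with a line at each list's median. The ERK output genes have a median of -1.50, and the medians of the other lists lie between -0.36 and 0.072.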

How the data were processed

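Gene-level values of 4 total RNA libraries were used as deposited: estimated counts of fragments and FPKM made by the authors, per the file headers. FastQC, Trim Galore, TopHat, Cufflinks, GRCm38, mm10 and mm8 are named per the submitters' processing notes, with no version or strand setting. Of the values, 2.52% to 3.14% per library were not whole. 2 further columns of scaled fragments were left unused. Replicates 0 and 1 of the table were read as 1 and 2. Identifiers were matched to GENCODE M21 names without their version, which differed for 2 members.

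Rounded counts went into edgeR 4.0.16 (R 4.3.3): filterByExpr, TMM factors, two-sided quasi-likelihood test, and Benjamini-Hochberg adjustment over 15116 genes at a threshold of 0.05. Each SE is the absolute log2 fold change over the root of the F statistic. Alternatives were DESeq2 1.42.0, limma 3.58.1 on log2(FPKM + 1) and log2(FPKM + 0.1) for genes of at least 0.5 FPKM, other filters and scaling, a replicate block, and leaving out each library. Duplicates are called biological, with no word on separate cultures, so their spread may be technical. All members were named, and from each pathway list up to 4 called genes of smallest p; other named genes were chosen after their values were seen. Members, lists and tests were chosen with earlier results of these data known. Some results are not reported here.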

Additional observations from a re-analysis of the deposited data

How the results depend on the processing

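Dusp6 and Dusp5 fell in all 11 alternatives run for single genes, by -1.87 to -1.76 and -1.13 to -0.88 on the log2 scale. Dusp8 fell in 8 of 10 and did not pass in the limma fits to log2(FPKM + 1) and log2(FPKM + 0.1) (adjusted p = 0.108 and 0.101). It was not tested with a mean of at least 5 FPKM, and neither was Dusp2. When 1 library was left out, Dusp6 ran from -1.87 to -1.76, Dusp5 from -1.13 to -0.91 and Dusp8 from -1.12 to -0.85. In the same fits Dusp1 ran from 0.14 to 0.42, Dusp14 from 0.17 to 0.56 and Dusp2 from -2.11 to -0.44. Dusp16 changed sign to -0.023 and -0.022 in the limma fits with 0.1 and 1 added, and to -0.015 without a filter, and ran from -0.046 to 0.055 when 1 library was left out. Dusp7 became 0.021 with library totals only, 0.11 in both limma fits, and 0.040 with at least 5 FPKM, and ran from -0.21 to 0.17 when 1 library was left out; neither gene passed in any of these. The cause was not tested.

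Over all genes, 1430 were called higher and 1759 lower with log2(FPKM + 1), and 1492 and 1818 with log2(FPKM + 0.1). When 1 library was left out, 2198 to 2785 were called higher and 2545 to 3120 lower. In the limma fits with 1 and with 0.1 added alike, the calls were 0 higher among ERK output genes, 2 higher and 0 lower among MAP kinases, 2 lower among MAPK-activated kinases, 2 lower among RAS, RAF, MAP3K and MAP2K genes, and 2 lower among the other phosphatases. With at least 5 FPKM, 2 MAPK-activated kinases and 2 other phosphatases were called lower, 3 upstream kinases higher and 0 other phosphatases higher, from fewer genes tested. Without a filter 2 ERK output genes were called higher. When 1 library was left out, calls ranged from 1 to 2 higher (ERK output), 2 to 3 higher and 1 to 2 lower (MAP kinases), 2 to 4 lower (MAPK-activated kinases), 2 to 4 lower (upstream kinases) and 2 to 3 lower (other phosphatases).

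The labels give no shared origin for same-numbered libraries. Deviations of same-numbered libraries from their group means correlated at -0.441 across genes. Parental replicate 1 thus tended to deviate in the direction of BORG-expressing replicate 2, and the reason was not tested. With the replicate block 1986 of 15116 tested genes were called higher and 2204 lower, and among the 10 members 0 higher and 3 lower. In the pathway lists the block gave 2 MAP kinases higher and 1 lower, 2 MAPK-activated kinases lower and 2 upstream kinases lower. With a crossed replicate block, chosen after seeing the data, 4619 of 15116 tested genes were called higher and 4700 lower. Among the 10 members 3 were called higher and 5 lower. The share called grew over all genes too, so this is no result about the members. Dusp2 had 57 fragments or fewer in every library, which limits its precision.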
